A study of Homo sapiens with 17 samples.

Results

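The comparison set the 2 RNA libraries of UTX knockout line 2 (KO2) against the 3 RNA libraries of UTX knockout line 1 (KO1), 5 of the 17 samples of the series. The 3 RNA libraries of WT cells served as the level to which both lines were referred. All 3 groups derive from the established human embryonic stem cell line H9 at passage 40 and went through embryoid bodies and neural rosettes to become neurons, taken at day 40. Both knockout lines carry the genotype UTX-/- and the WT cells are labelled wild type. The sources used here do not give how the lines were derived, whether each is 1 clone or where the gene was edited. The series text speaks of biological replicates without saying whether each was differentiated separately. A p-value here therefore measures no more than the spread among the libraries at hand.

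UTX, the product of the KDM6A gene, is a histone demethylase of lysine 27 on H3 that works with the KMT2 methyltransferases at enhancers. Methylation of that lysine (H3K27me3) is the mark of Polycomb-repressed genes, and methylation of lysine 36 (H3K36me3) lies along transcribed gene bodies. Independently edited stem cell lines can differ in genes whose promoter methylation or copy number was fixed when a single cell founded the line, and in how a differentiation ran.

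Expression is given in CPM, counts scaled to the TMM-adjusted library size. KDM6A measured 40.7, 30.0 and 34.1 CPM across the KO1 libraries, 25.9 and 33.9 CPM in KO2, and 35.2 to 36.1 CPM among WT libraries. The KO1 and KO2 ranges overlapped, and the log2 difference KO2 minus KO1 was -0.23 (SE 0.19, edgeR adjusted p = 1.00). A gene-level count does not show where the gene was edited, so KDM6A does not check the labels here.

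The libraries held 17.4 to 31.5 M counts. KO1 replicate 2 stood apart from the other KO1 libraries before any gene was compared. On the first principal component, which held 58% of the variance, it lay at 133, the KO2 libraries at 81.6 and 79.8, and the other 5 libraries between -85.8 and -34.7. The SD over genes of the log2 difference between libraries was 0.736 for KO1 replicate 2 against KO2 replicate 2. It was 1.43 and 1.49 for KO1 replicate 2 against KO1 replicates 1 and 3, and 0.907 between the KO2 libraries. The same 3 libraries were high in mesenchymal and fibroblast markers: the mean log2 CPM of that list was 9.86 in KO1 replicate 2 and 8.75 and 9.29 in KO2, against 4.84 and 5.04 in KO1 replicates 1 and 3 and 2.70 to 5.73 in WT. COL3A1, a fibrillar collagen of connective tissue, reached 14706 CPM in KO1 replicate 2 and 6885 and 9276 in KO2, against 205 and 258 in the other KO1 libraries. STMN2, a marker of growing axons, was at 41.5 CPM in KO1 replicate 2 and at 233 and 105 in KO2, against 384 and 464, so neuronal transcripts were present in all 5 knockout libraries. The 25 tested pan-neuronal genes had a mean log2 CPM of 7.49, 5.54 and 7.66 in KO1 and 7.07 and 6.32 in KO2, against 7.26 to 7.96 in WT. Whether KO1 replicate 2 carries the right label was not tested, and every KO1 mean includes it unless stated. In bulk RNA, more cells of a type and more RNA per cell cannot be told apart.

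No gene among the 19440 tested differed between the lines by edgeR's quasi-likelihood test on all 8 libraries: 0 were higher and 0 lower (0%) at an adjusted p under 0.05. The smallest adjusted p was 0.684. An unadjusted p under 0.05 was reached by 436 genes (2.24%), 277 of them higher (1.42%) and 159 lower (0.818%) in KO2. DESeq2 called 9 of 22426 genes (0.0401%), 4 higher (0.0178%) and 5 lower (0.0223%). The same edgeR fit called 0 genes between either line and WT (0%), with 1566 (8.06%) and 3566 genes (18.3%) at an unadjusted p under 0.05 for KO1 and KO2. DESeq2 called 173 (0.846%) and 839 (4.24%). Those contrasts share the WT libraries.

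Genes that could mark the lines themselves were therefore sought by a rule on the libraries and not by a test. A gene was called steady when its log2 CPM varied by at most 1 among the KO1 libraries and by at most 1 between the KO2 libraries. It was called steady and apart when, in addition, a gap of at least 1 separated the nearest libraries of the lines, a 2-fold difference on that scale. The log2 CPM carry a prior count of 2, which shrinks differences between low counts. For weakly expressed genes neither limit is therefore a 2-fold limit in CPM. SLC5A12 had a KO1 range of 0.78 at 0.0505, 0.112 and 0.0294 CPM. Of the 19440 genes, 1982 (10.2%) had lines that did not overlap, 841 higher (4.33%) and 1141 lower (5.87%) in KO2. Steadiness within both lines held for 10753 genes (55.3%). Both requirements left 27 genes (0.139%), 12 higher (0.0617%) and 15 lower (0.0772%) in KO2. What follows on these genes is a description, since the 5 libraries chose them. Just inside the gap of 1 were CACNA1C-AS1 (1.00) and AC090971.4 (1.03), and just outside it AC087203.3 (0.998) and AC018865.3 (0.978).

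The 27 genes were weakly expressed. Their mean over the 8 libraries lay under 1 CPM for 19 and between 1 and 10 CPM for 8, and 21 had a mean under 2 CPM even in their higher line. Of the 27, 18 carried a symbol found in the reference and 14 were protein coding. The WT libraries took no part in the rule itself, but they did take part in the low-count filter and the scaling before it. FAM242C, with at most 5 counts in a knockout library, passed that filter through its WT counts. Among the genes with a reference symbol, SLC5A12, CYP24A1, HSPA6, STEAP1B and SMIM10 passed it through KO2 alone, the line in which they were high. The place of WT is therefore not fully independent of the choice. WT lay at the KO1 level for 12, at the KO2 level for 5 and between the lines for 10.

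**Figure D1:**
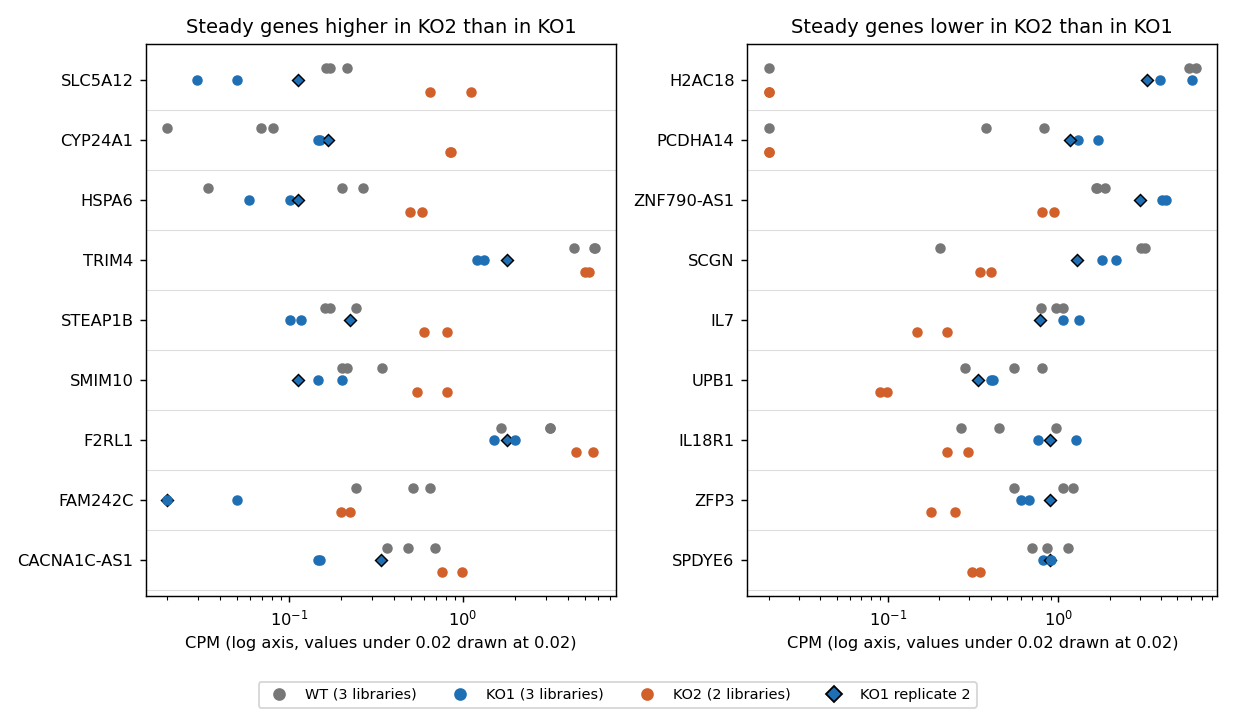
CPM on a log axis of the 18 steady and apart genes with a reference symbol, 9 higher and 9 lower in KO2, with 1 point per library for WT, KO1 and KO2 and a diamond for KO1 replicate 2. TRIM4 has its WT points with KO2, IL7 has them with KO1, and ZNF790-AS1 has them between the lines.

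TRIM4, which encodes a RING finger ubiquitin ligase of the tripartite motif family, had the lowest unadjusted p among the genes higher in KO2. It lies on chromosome 7 at 99890403 to 99919530 (GRCh38). The counts were 26, 32 and 41 in KO1, or 1.31, 1.79 and 1.20 CPM, and 113 and 107 in KO2, or 5.05 and 5.30 CPM. In WT the CPM were 5.72, 5.67 and 4.34. KO2 and WT overlapped and every KO1 library lay below both, with a mean of 1.44 ± 0.313 CPM (SD, n = 3) against 5.17 ± 0.175 (SD, n = 2) in KO2, a 3.60-fold difference. The log2 difference was 1.85 (SE 0.30) and did not pass edgeR's test (adjusted p = 1.00), while DESeq2 called it (adjusted p = 0.000136). TRIM4 belonged to a list of 18 tested genes known to vary between human pluripotent lines. The list was drawn up for this comparison with earlier results of these data known, so it is no independent support. In that list 3 genes (16.7%), TRIM4 among them, were above and 1 (5.56%) below KO1 in both KO2 libraries. Of all genes 4.33% and 5.87% were. TRIM4 was its 1 member that was steady and apart, as were 0.139% of all genes.

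F2RL1, the receptor PAR2 that is cut and activated by serine proteases, had 30, 32 and 68 counts in KO1 (1.51, 1.79 and 2.0 CPM) and 100 and 113 in KO2 (4.47 and 5.59 CPM). The WT libraries at 3.16, 1.65 and 3.16 CPM ran from within the KO1 range to below KO2. The KO2 mean was 2.85-fold that of KO1. Besides TRIM4 and F2RL1, the genes higher in KO2 had at most 25 counts in any knockout library, apart from CU633906.2 and AC009315.1. SLC5A12, a sodium-coupled lactate transporter, had 1, 2 and 1 counts in KO1, 4, 5 and 4 in WT and 25 and 13 in KO2. CYP24A1, which inactivates vitamin D, had 3, 3 and 5 counts in KO1 and 19 and 17 in KO2, with 2, 2 and 0 in WT. Every KO2 library exceeded every KO1 and WT library in both genes. Both passed the low-count filter through KO2 alone, so that order is not apart from their choice.

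HSPA6, a heat-inducible HSP70 chaperone, had 2 counts in each KO1 library and 13 and 10 in KO2. STEAP1B, a relative of the STEAP metalloreductases, had 2, 4 and 4 against 18 and 12. SMIM10, an X-linked gene for a small membrane protein, had 4, 2 and 5 against 18 and 11. These 3 genes rest on few reads and passed the low-count filter through KO2 alone. The WT counts were 5, 1 and 5 for HSPA6 and 6, 5 and 3 for STEAP1B, at the KO1 level by mean log2 CPM, and 5, 10 and 4 for SMIM10, between the lines. The long noncoding genes differed in where WT stood. CACNA1C-AS1, antisense to a calcium channel gene, had 3, 6 and 5 counts in KO1, 9, 20 and 9 in WT and 17 and 20 in KO2. FAM242C had 1, 0 and 0 counts in KO1 and 5 and 4 in KO2, below the 6, 15 and 12 of WT.

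ZNF790-AS1, a noncoding RNA beside a zinc finger gene on chromosome 19, was among the genes lower in KO2. Its CPM were 4.04, 3.02 and 4.26 in KO1, 1.87, 1.68 and 1.66 in WT and 0.804 and 0.941 in KO2, from 18 to 145 counts a library. The 3 groups did not overlap. The KO1 mean was 4.33-fold the KO2 mean, and WT was 1.99-fold KO2 and 0.460-fold KO1. The log2 difference KO2 minus KO1 was -2.11 (SE 0.33, edgeR adjusted p = 1.00), and DESeq2 gave an adjusted p of 0.000136. The counting is not stated to use strand, so reads of an antisense gene and its partner cannot be told apart.

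IL7, the cytokine that supports lymphocyte survival, had 21, 14 and 45 counts in KO1 and 5 and 3 in KO2, a 5.68-fold lower mean CPM in KO2. WT had 24, 23 and 20 counts, at the KO1 level. IL18R1, a chain of the interleukin 18 receptor, had 15, 16 and 43 counts in KO1 and 5 and 6 in KO2, a 3.74-fold lower mean, with WT spread over 24, 13 and 5. SCGN, a calcium-binding protein of neuroendocrine cells and some interneurons, had 43, 23 and 61 counts in KO1 and 9 and 7 in KO2. Its WT counts of 5, 89 and 60 spanned both lines. UPB1, an enzyme of pyrimidine breakdown, and ZFP3, a zinc finger protein, were 4.07-fold and 3.41-fold lower in KO2, with WT at the KO1 level for both.

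A group of 5 genes had 0 counts in both KO2 libraries. A fold against 0 is given against a floor of 3 counts over both KO2 libraries. CU633904.2 had 49, 39 and 123 counts in KO1 and 58, 90 and 83 in WT, at least 39.1-fold lower in KO2. AC006011.2 had 18, 13 and 39 counts in KO1 and 14, 9 and 8 in WT, at least 13.2-fold lower. These 2 were detected in all 6 libraries outside KO2. H2AC18, PCDHA14 and RNF185-AS1 were also at 0 in 1 WT library each, so a listing at 0 is not particular to KO2 for them. H2AC18 encodes a histone H2A and has a near-identical copy, H2AC19. The sum of both copies was 121, 70 and 266 counts in KO1 and 120 and 89 in KO2, which overlap, so its difference between the lines is uncertain. The same holds for SPDYE6, FAM242C and PCDHA14, which belong to families of similar copies, and for the clone-named genes CU633904.2 and CU633906.2, whose symbols the reference does not hold. CU633906.2 was opposite in direction, at 20, 13 and 33 counts in KO1 and 83 and 89 in KO2.

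RefSeq promoters (GRCh38.p14), each taken at the start of 1 transcript, were matched for 14 of the 18 genes with a reference symbol. That start was the outer edge of the gene for 12 of the 14, and lay 1329 bases inside it for SLC5A12 and 13 bases inside it for ZNF790-AS1. The 250 bases before the start held a median of 19.5 CG pairs in these 14, against 11 over all 35116 promoters of the table. Those 35116 were not limited to tested genes. With the gap lowered to 0.5, the median over 44 matched promoters was 12. The letters TATAAA, on either strand, stood in 1 of the 14 (7.14%) and in 10.7% of all. Below are 4 of them with CG pairs in capitals. SLC5A12 was the poorest in CG pairs of the 14, and FAM242C and F2RL1 carried H3K27me3 peaks on these very bases in both lists. ZNF790-AS1 carried none. SLC5A12 held 1 pair (chr11:26722061-26722310, minus strand), F2RL1 held 26 (chr5:76818780-76819029, plus strand), FAM242C held 19 (chr12:54126396-54126645, minus strand) and ZNF790-AS1 held 17 (chr19:36797313-36797562, plus strand).
SLC5A12: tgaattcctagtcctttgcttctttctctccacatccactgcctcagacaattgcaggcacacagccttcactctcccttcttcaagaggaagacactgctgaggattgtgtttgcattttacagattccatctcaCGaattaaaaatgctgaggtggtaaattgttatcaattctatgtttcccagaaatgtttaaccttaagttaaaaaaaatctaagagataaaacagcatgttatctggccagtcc
F2RL1: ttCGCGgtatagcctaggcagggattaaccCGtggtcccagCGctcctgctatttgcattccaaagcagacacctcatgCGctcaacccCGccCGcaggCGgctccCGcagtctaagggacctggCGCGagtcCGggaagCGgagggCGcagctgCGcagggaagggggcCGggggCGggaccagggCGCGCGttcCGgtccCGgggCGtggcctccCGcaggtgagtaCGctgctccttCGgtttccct
FAM242C: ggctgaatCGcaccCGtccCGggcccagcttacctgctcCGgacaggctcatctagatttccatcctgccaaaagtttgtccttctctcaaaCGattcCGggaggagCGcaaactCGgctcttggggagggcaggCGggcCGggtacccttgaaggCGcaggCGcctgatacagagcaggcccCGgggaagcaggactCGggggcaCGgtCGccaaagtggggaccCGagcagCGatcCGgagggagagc
ZNF790-AS1: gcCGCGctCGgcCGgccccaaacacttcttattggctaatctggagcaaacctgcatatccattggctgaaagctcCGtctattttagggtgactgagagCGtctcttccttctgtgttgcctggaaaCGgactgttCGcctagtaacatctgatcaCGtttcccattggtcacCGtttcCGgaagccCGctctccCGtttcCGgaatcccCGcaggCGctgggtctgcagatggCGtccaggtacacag

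The deposited chromatin data give 1 peak list per mark for WT and 1 for KO, the latter named for both knockout lines, so they do not separate KO2 from KO1. An H3K27me3 peak lay within 2000 bases of 7 of the 18 genes in the WT list (38.9%) and of 9 in the KO list (50.0%). Over all 16553 tested genes with a position the shares were 18.5% and 19.2%. Over the 5457 of these with a mean under 10 CPM, the range in which all 27 genes fell, they were 30.9% and 31.4%. The genes with a peak in both lists were CYP24A1, F2RL1, FAM242C, CACNA1C-AS1, IL7, UPB1 and ZFP3. SCGN and IL18R1 had a peak in the KO list alone. On the 250 promoter bases themselves, 4 of the 14 genes had a WT peak and 5 a KO peak. H3K36me3 peaks were within 2000 bases of 1 gene in the WT list, ZNF790-AS1, and of 0 in the KO list, against 13.9% and 4.60% of tested genes under 10 CPM. A share over 18 genes moves by 5.56 points with each gene. On the gene span alone, H3K27me3 peaks lay at 6 of the 18 in the WT list and 7 in the KO list (33.3% and 38.9%). Of the 5457 tested genes under 10 CPM, 1584 and 1606 had one there. With the gap lowered to 0.5, 12 of 56 genes had an H3K27me3 peak within 2000 bases in the WT list (21.4%). In the KO list 14 did. Both shares lay below the 30.9% and 31.4% above, though the 56 were not limited to genes under 10 CPM. The higher share of the 18 did not extend to them.

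A smaller gap of 0.5 on the log2 scale admitted 112 genes (0.576%), 51 higher (0.262%) and 61 lower (0.314%) in KO2. WT lay at the KO1 level for 59, between the lines for 33 and at the KO2 level for 20. Of these genes outside the 27, 10 had a reference symbol and a group mean of at least 5 CPM, a cutoff set after the values were seen. The highest group mean decided. POTEF and FAR2P1 passed through WT alone, and NCEH1, GDF5 and GLI1 through KO2 alone. Which group is highest in these genes, and the count of genes higher in KO2 among the 10, are therefore partly set by the cutoff.

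**Figure D2:**
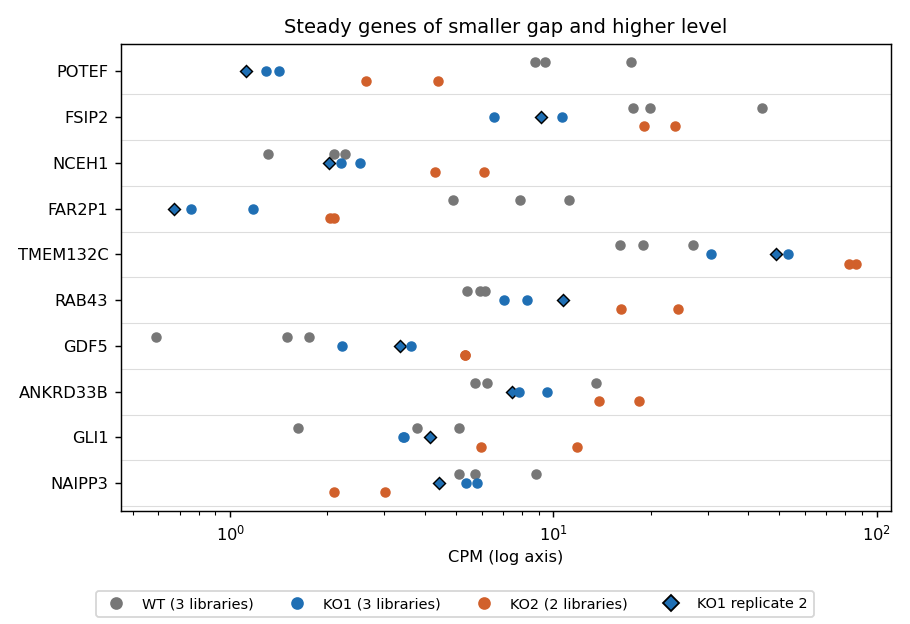
CPM on a log axis of the 10 genes with a gap of 0.5 to 1 between the lines and a group mean of at least 5 CPM, with 1 point per library and a diamond for KO1 replicate 2. KO2 lies above KO1 in 9 of the 10, and POTEF and FAR2P1 have their WT points above both lines. POTEF and FAR2P1 passed the cutoff through WT alone, and NCEH1, GDF5 and GLI1 through KO2 alone.

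FSIP2, a gene of the sperm tail sheath, was at 6.56, 9.19 and 10.6 CPM in KO1 and 19.1 and 23.8 in KO2, from 130 to 480 counts a library. WT libraries at 17.6, 19.9 and 44.2 overlapped KO2 and lay above every KO1 library. TMEM132C, a transmembrane gene of the same list of variable genes as TRIM4, was at 53.1, 49.0 and 30.7 CPM in KO1 and 86.4 and 82.5 in KO2, against 18.9, 16.1 and 26.96 in WT. Both lines exceeded WT in every library, and KO2 exceeded KO1 1.91-fold. An H3K27me3 peak lay on the 250 bases before a TMEM132C transcript start, 822 bases inside the gene, in both peak lists. RAB43, a small GTPase of membrane traffic, was at 7.02, 10.7 and 8.26 CPM in KO1 and 24.3 and 16.2 in KO2. Its WT values of 5.40, 5.91 and 6.16 lay below every KO1 library.

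POTEF, a gene of an ankyrin and actin fusion family, and FAR2P1, a transcribed pseudogene, are neighbours on chromosome 2, 22404 bases apart between 130025998 and 130129222. POTEF was at 1.41, 1.12 and 1.29 CPM in KO1, 2.64 and 4.41 in KO2 and 9.41, 8.80 and 17.4 in WT. FAR2P1 was at 0.757, 0.672 and 1.18 CPM in KO1, 2.10 and 2.03 in KO2 and 4.91, 7.91 and 11.201 in WT. Both genes thus had KO1 lowest and WT highest without overlap. AC018865.3, just outside the gap of 1 and without a reference entry, had the same order at 3.33, 3.53 and 4.73 CPM in KO1, 10.8 and 9.41 in KO2 and 24.4, 27.9 and 38.5 in WT. DESeq2 called AC018865.3 (log2 difference 1.39, adjusted p = 0.035), and edgeR did not (adjusted p = 1.00). POTEF has close copies in the genome, which a count per gene symbol may split.

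GDF5, a BMP-family ligand of joint formation, was at 2.22, 3.36 and 3.61 CPM in KO1 and 5.32 and 5.35 in KO2, with WT at 0.590 to 1.75. GLI1, a transcriptional target of hedgehog signalling, was at 3.43, 4.14 and 3.44 in KO1 and 5.99 and 11.8 in KO2, and its WT values of 1.62 to 5.09 spanned KO1. NCEH1, a cholesterol ester hydrolase, and ANKRD33B were 2.32-fold and 1.95-fold higher in KO2. NAIPP3, a pseudogene of the NAIP family, was 2.03-fold lower. In WT, NCEH1 and NAIPP3 lay at the KO1 level. The log2 differences of these 10 genes ran from -1.02 for NAIPP3 to 1.46 for POTEF, and none passed edgeR's adjusted threshold. In all, 8 of the 112 genes had both lines above every WT library and 6 had both lines below.

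The 10 lowest unadjusted p-values of the comparison held 7 of the 27 genes. They were CU633904.2, AC006011.2, ZNF790-AS1, TRIM4, SLC5A12, IL7 and CU633906.2. AC018865.3 and RAB43 were in the wider set, and CU634019.2 was in neither, at 3.73, 1.57 and 11.4 CPM in KO1 and 0.0894 and 0 in KO2. DESeq2's 9 calls were 5 of these 27 genes, AC018865.3, CU634019.2, PRND and AC007192.1. Small ranges and a large gap in the same libraries also give small p-values, so neither overlap with the 27 is independent support. PRND, the prion-like doppel gene, rests on 1 library, with 83.6 CPM in KO2 replicate 1 against 3.96 in KO2 replicate 2 and 1.20 to 2.67 in KO1.

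Leaving out KO1 replicate 2 changed the count of calls. EdgeR then called 958 of 19357 genes (4.95%), 727 higher (3.76%) and 231 lower (1.19%) in KO2. DESeq2 then called 2518 genes (13.1%) between the lines, and 147 (0.789%) and 4423 (21.5%) for KO1 and KO2 against WT. KO1 replicate 2 took no part in that fit. With it in the fit edgeR called 0 genes, and its likeness to KO2 had already been seen over all genes. Its own level in the 958 genes is therefore a description and no independent support. It was nearer the KO2 mean than the mean of KO1 replicates 1 and 3 in 947 of the 958, and beyond the KO2 mean in 883. With 0 for the KO1 replicates 1 and 3 and 1 for KO2, its median place was 1.42. Mesenchymal marker levels moved with these libraries as given above, and their part in the 958 calls was not tested.

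**Figure D3:**
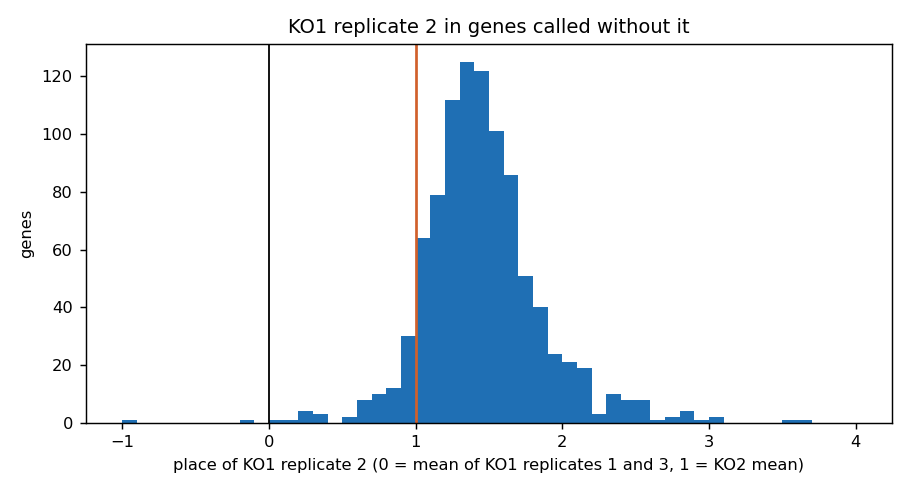
Histogram over the 958 genes called without KO1 replicate 2 of where that library lies between the other KO1 libraries (0) and KO2 (1), with places outside -1 to 4 drawn at the edge. The library lies beyond the KO2 mean in 883 genes, and in 11 it lies nearer the other KO1 libraries.

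The 11 genes in which KO1 replicate 2 stayed nearer KO1 were TRIM4, SLC5A12, RAB43, IFI16, AC018865.3 and AC087721.2, all higher in KO2, and ZNF790-AS1, IL7, AC006011.2, CU633904.2 and CU634019.2, all lower. Their log2 differences without that library included 2.05 for TRIM4 (edgeR adjusted p = 0.0229), 1.42 for RAB43 (edgeR adjusted p = 0.0337) and -2.23 for ZNF790-AS1 (edgeR adjusted p = 0.0229). IFI16, a sensor of foreign DNA induced by interferon, was at 2.57, 4.09 and 2.06 CPM in KO1 and 15.5 and 6.88 in KO2, with WT at 2.03 to 3.27. Of the 11, 6 were among the 27 steady and apart genes. The rule for the 27 already placed KO1 replicate 2 near the other KO1 libraries and away from KO2. Any of the 27 called without that library falls among the 11 by that rule.

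None of the 33 gene lists held a gene called by edgeR with all libraries (0%), and the values below are counts of genes whose lines did not overlap, to be read against 4.33% higher and 5.87% lower over all genes. The median log2 difference over all genes was -0.03.

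**Figure D4:**
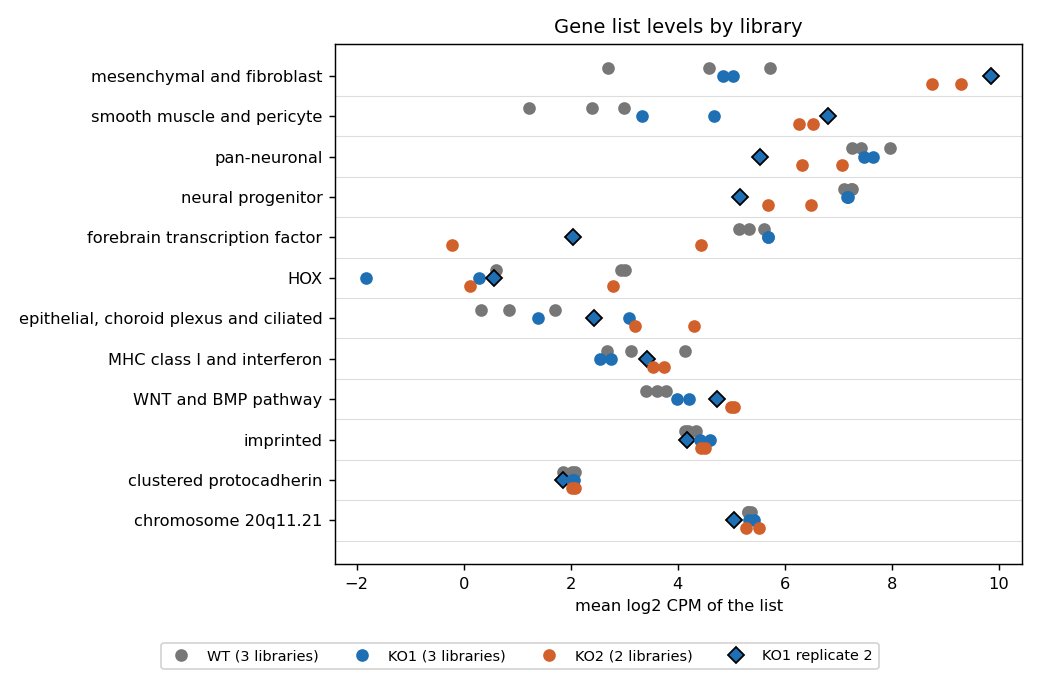
Mean log2 CPM of 12 gene lists in each library, 1 point per library for WT, KO1 and KO2 with a diamond for KO1 replicate 2. In the mesenchymal list KO1 replicate 2 lies with KO2 at 8.75 to 9.86, and in the HOX list KO2 replicate 1 lies at 2.80 and KO2 replicate 2 at 0.11.

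Transcription factors of the forebrain had a median difference of -1.80, and 0 of 12 had lines that did not overlap. The mean log2 CPM of the list was 5.68, 2.04 and 5.69 in KO1 and -0.22 and 4.43 in KO2, against 5.14 to 5.61 in WT, so the lines overlapped and KO2 replicate 1 was the lowest library. The median of the list was -0.86 without KO2 replicate 1 and -6.48 without KO2 replicate 2. HOX genes, which specify hindbrain and spinal cord, had a median difference of 2.11 and 4 of 18 above KO1 in both KO2 libraries. HOXB3 was at 35.1, 30.4 and 18.1 CPM in KO1 and 215 and 36.6 in KO2, with WT at 59.9 to 171. Without KO2 replicate 1 the HOX median was -0.04, so that library decided it, and the 1 KO2 library left was assumed to vary like the other groups. A separate list of midbrain, hindbrain and spinal cord factors had a median of 1.07, with 2 of 17 above and 0 below, and its median was 0.48 without KO2 replicate 1 and 1.95 without KO1 replicate 2. OLIG3 of that list, a factor of the dorsal hindbrain and spinal cord, was at 3.79, 0.168 and 2.53 CPM in KO1 and 9.38 and 14.5 in KO2.

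Among epithelial, choroid plexus and ciliated markers, 4 of 13 lay above KO1 in both KO2 libraries. The keratins KRT8 and KRT18 were at 222 and 269 CPM in KO2 replicate 1 but at 37.8 and 22.6 in KO2 replicate 2, against at most 24.0 and 22.5 in KO1. The list median was 1.03 and fell to 0.57 without KO2 replicate 1. In the WNT and BMP list, 5 of 37 genes lay above and 1 below. BMP6, a ligand, was at 6.26, 5.60 and 6.11 CPM in KO1 and 60.5 and 9.11 in KO2. WNT5A, a noncanonical ligand, was at 29.4, 70.2 and 50.3 in KO1 and 182 and 76.0 in KO2. DKK2, a secreted modulator of WNT receptors, was at 88.9, 129 and 11.17 in KO1 and 594 and 142 in KO2. In each of these genes KO2 replicate 2 lay nearer the highest KO1 library than KO2 replicate 1. The list median of 0.61 was 0.21 without KO2 replicate 1 and 1.05 without KO1 replicate 2.

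MHC class I and interferon genes had 7 of 28 members above KO1 in both KO2 libraries and 0 below, with a median of 0.54, which was 0.96 without KO1 replicate 2. HLA-B, an antigen-presenting chain, was at 16.1, 30.8 and 16.3 CPM in KO1 and 56.8 and 34.4 in KO2. TAP2, a subunit of the peptide transporter, was at 9.03, 9.58 and 6.20 against 16.1 and 13.1. HLA-C, TAP1, NLRC5 and IFIT2 were also above. The WT values of HLA-B were 85.4, 48.8 and 33.4 CPM and overlapped KO2. Averaged over the list, log2 CPM ran from 2.68 to 4.13 among WT libraries, which overlapped both KO1 (2.54 to 3.42) and KO2 (3.54 and 3.74). None of the 28 was steady with a gap of 0.5. Mesenchymal cells are known to carry more MHC class I than neurons, and the mesenchymal level stood at 9.86 in KO1 replicate 2, whose HLA-B was the highest of KO1. In WT replicates 1, 2 and 3 the mesenchymal level stood at 4.59, 2.70 and 5.73, beside HLA-B at 85.4, 48.8 and 33.4 CPM. The part of mesenchymal cells in the difference was not tested.

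Imprinted, clustered protocadherin and X-linked escape genes, lists aimed at differences between clones, had medians close to that of all genes. The list of genes variable between human pluripotent lines had a median of 0.26. A small median can hide differences in both directions. The 42 tested imprinted genes had a median of -0.02, with 3 above and 1 below. DIRAS3, a maternally imprinted RAS relative, was at 3.48, 3.14 and 2.29 CPM in KO1 and 14.2 and 4.06 in KO2. PHLDA2, an imprinted gene of placental growth, was at 1.57, 1.96 and 0.265 against 5.63 and 2.57. The 51 clustered protocadherins, neuronal adhesion molecules whose promoters are chosen per cell, had a median of -0.04. In that list 6 (11.8%) lay above and 3 (5.88%) below, against 4.33% and 5.87% of all genes. PCDHGA10 was at 7.52, 11.03 and 2.12 CPM in KO1 and 23.3 and 22.1 in KO2, and PCDHGB7 at 2.07, 9.19 and 3.94 against 17.4 and 16.4. Both were even between the KO2 libraries but not within KO1. The 24 X-linked genes known to escape silencing had a median of -0.03 with 0 above and 1 below.

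Whole chromosomes differed little. The median log2 difference per chromosome ran from -0.10 on chromosome 18 to 0.03 on chromosome 21. Genes of the 20q11.21 band, which is often gained in cultured pluripotent cells, had a median of -0.01 over 18 genes and 0 of them had lines that did not overlap. Over 294 windows of 10 Mb with at least 10 tested genes the medians ran from -0.47 to 0.28. The lowest was chromosome 19 from 20000001 to 30000000, with 31 of 36 genes lower in KO2. In both KO2 libraries 6 genes (16.7%) lay below every KO1 library and 1 (2.78%) above, against 5.87% and 4.33% of all genes. Of these 36 genes, 21 were ZNF genes, a family that includes repressors of repeated elements, with a median of -0.52. Their mean log2 CPM was 4.10 and 4.11 in KO1 replicates 1 and 3 and 4.14 to 4.24 in WT, and 3.47 in KO1 replicate 2 against 3.21 and 3.65 in KO2. The low level was therefore shared by KO1 replicate 2 and both KO2 libraries, and did not separate the lines.

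**Figure D5:**
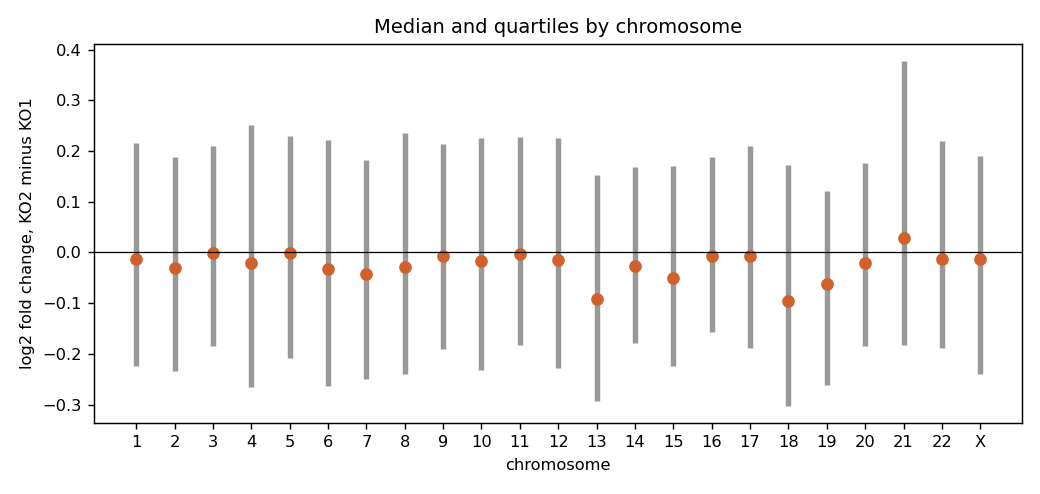
Median (points) and quartiles (bars) of the fitted log2 difference KO2 minus KO1 over the tested genes of each chromosome. All medians lie between -0.10 and 0.03, within the quartiles of every chromosome.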

How the data were processed

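Per the submitters' processing notes, the authors quantified RNA with Salmon 1.1.0 on GRCh38. The deposited table holds estimated counts per gene symbol for 60199 genes, not normalized. No source used here names the annotation. Per the file headers, the authors called peaks with MACS2 2.2.7.1. The deposited lists give a fold ratio over control and a -log10 q-value per peak, which are the authors' own values. 

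Counts were rounded. EdgeR 4.0.16 (R 4.3.3) was fitted to 8 RNA libraries in 3 groups after filterByExpr and TMM scaling, with 5 residual degrees of freedom and Benjamini-Hochberg adjustment over 19440 genes at 0.05. The SE is the log2 difference divided by the square root of F. CPM are TMM-scaled. Log2 CPM used a prior count of 2. DESeq2 1.42.0 was the comparison tool. WT was placed at a line when its mean lay within 0.25 of the distance between the lines, or beyond it. Peaks had to overlap a gene widened by 2000 bases by at least 1 base. Positions came from a RefSeq table for 16553 tested genes, 384 through an older symbol. With 17.4 to 31.5 M counts a library, genes with few counts are measured with little precision. The scripts were tested on simulated data.

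Genes named are all steady and apart genes with a reference symbol, the 10 lowest p-values, members of 33 gene lists, of which 630 of 700 genes were tested, and, chosen after the values were seen, the 10 genes of the wider set, those of the 11 and DESeq2's calls. Members and lists were chosen with earlier results of these data known. The alternatives were other scaling, filters, tools, samples, gaps and ranges, a replicate block and each library left out. Some members of the lists are not reported here by name.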

Additional observations from a re-analysis of the deposited data

Results flagged for a closer look

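In 5 of the 27 steady and apart genes every WT library lay between the lines. The same order held for 7 of the 112 genes with a gap of at least 0.5, EYS and AL034417.5 being the others, and for 16 of the 19440 genes tested (0.0823%). This was noted from the order of the libraries. Such an order needs lines that do not overlap, which the rule required of the 27 and the 112 genes. Of all genes tested, 1982 (10.2%) met that need, so the share over all genes is no like baseline. For SMIM10 the lowest WT library was at 0.203 CPM and the highest KO1 library at 0.202. SMIM10 and SLC5A12 passed the low-count filter through KO2 alone, where they were high. The difference between the lines was tested by edgeR and did not pass for any of the 5 (adjusted p = 1.00). The log2 difference KO2 minus KO1 was 3.79 for SLC5A12, 2.10 for SMIM10 and 2.06 for CACNA1C-AS1, with KO2 above WT and KO1 below. It was -2.11 for ZNF790-AS1, with KO1 above WT and KO2 below. For AC006011.2 the fitted value was -7.45, which depends on the prior count because both KO2 libraries had 0 counts, and the bound was at least 13.2-fold lower in KO2. ZNF790-AS1 had at least 18 counts in every library. The other 4 had 39 counts or fewer in any library.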

How the results depend on the processing

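EdgeR called 0 genes between the lines with RLE size factors, no filter, a stricter filter, the 5 KO libraries alone, a robust fit, the mesenchymal mean as covariate (833 at an unadjusted p under 0.05) and 7 of 8 left-out libraries, and 0 to 958 over the libraries left out. DESeq2 called 9, and 2518 without KO1 replicate 2, a setting added after the data were seen. For KO1 against WT the counts were 0 in the main fit, 1 with no filter, 173 with DESeq2 and 147 with DESeq2 without KO1 replicate 2. For KO2 against WT they were 0, 1 with no filter, 839 with DESeq2, 4423 with DESeq2 without KO1 replicate 2 and 0 to 3228 over libraries left out. List members called were 0 to 55 over libraries left out, 1 with DESeq2 and 153 with DESeq2 without KO1 replicate 2.

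The 27 steady and apart genes (12 higher, 15 lower in KO2) became 14 (5 and 9, 13 of them shared) with at least 10 counts in at least 5 libraries. They became 9 (5 and 4) with a range of at most 0.5, 5 (0 and 5) with a gap of at least 2 and 112 (51 and 61) with a gap of at least 0.5. With RLE size factors 26 of 28 were shared, and with a prior count of 0.5, 22 of 26. Leaving out 1 knockout library loosens the rule and gave 55 to 907 genes (31 to 683 higher, 21 to 224 lower): 64 and 55 without KO1 replicates 1 and 3, 907 without KO1 replicate 2, and 157 and 450 without KO2 replicates 1 and 2. Between 25 and 27 of the 27 were kept. Genes whose lines did not overlap numbered 2727 to 10636 with a library left out (1180 to 5227 higher, 1547 to 5409 lower). By the nearest line mean, WT was between the lines for 0 genes and at KO2 for 9. In windows of 5 Mb the highest median was 0.499.

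With the mesenchymal covariate the log2 differences of the markers COL3A1 (-0.26) and STMN2 (1.13) turned. The cause was not tested. Same-numbered replicates correlated from -0.301 to 0.267 in their deviations from the group means. Between KO1 and KO2 the values were 0.267 for replicate 1 and 0.17 for replicate 2. Groups this small cannot show whether the numbers pair the samples. With a replicate block edgeR called 0 genes (259 at an unadjusted p under 0.05). Of the 27 genes, 19 had a mean under 1 CPM, where few counts limit the precision.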
